A study of Mus musculus with 16 samples.

Results

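The 10 genes described here, Acta1, Tnnt3, Tnni2, Myh4, Myh1, Myh2, Mylpf, Actn3, Pvalb and Ckm, encode proteins of fast skeletal muscle fibers, and their messenger RNA was measured in B16F10 melanomas. They were picked from the 18929 genes of the FPKM table by symbol because, in an earlier reading of the same values, they varied together from tumor to tumor. Their levels and their differences between groups are therefore given as a description, with no test. B16F10 is a pigmented mouse melanoma line, and each tumor was raised from 500000 cells placed in the abdomen, on the right side. The hosts were C57BL/6 females aged 7 to 8 weeks. Treatment was given into the peritoneum from a tumor volume of about 50 mm3 and lasted 9 to 11 days. The 16 independent tumors formed 4 groups of 4, namely vehicle (corn oil given with an IgG isotype control), PD1mAb (an antibody against PD1, here anti-PD1), alpha_KG (α-ketoglutarate at 100 mg/kg, here α-KG) and aKG_PD1mAb (both agents, here α-KG + anti-PD1). The make-up of the vehicle is from the paper, as the labels name it without its contents. All tumors were pieces of whole tissue, which holds the host's cells beside the melanoma cells, and in such RNA a smaller number of cells of a type and less RNA per cell cannot be told apart.

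A muscle fiber shortens when thick filaments of myosin pull on thin filaments of actin inside repeating units, the sarcomeres, which are joined end to end at Z-discs. Calcium released on a nerve signal binds the troponin complex on the thin filament and lets myosin reach actin. Fast fibers carry their own versions of these proteins, take calcium up quickly with the help of parvalbumin and refill ATP through creatine kinase. Melanoma cells are not known for this program, and in mice striated muscle lies in the abdominal wall and in a thin sheet under the skin.

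The table held melanocyte genes at high levels in every tumor, as its label says. The 7 melanocyte genes examined summed to between 7845 and 10572 FPKM per tumor. FPKM relates fragments to transcript length and to the number mapped, so levels can be compared between genes. Depth is not stated, the FPKM summed to between 514180 and 654772 per tumor, and tumors of the same group correlated with r of 0.981 to 0.996 on the log2 scale. Vehicle tumor 4 stood apart from the other vehicle tumors in the genes described here, and results that rest on it are given with and without it.

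The stretches of DNA before these genes are shown first, with the places of the genes on several chromosomes. Whether these stretches have a part in the levels of the block was not tested. RefSeq (GRCm38.p6, the assembly known as mm10, which is the build the submitters' processing notes name) placed Tnni2 (142441816-142444410), Tnnt3 (142498771-142516213), Mylpf and Ckm on chromosome 7, Acta1 on chromosome 8, Pvalb on chromosome 15 and Actn3 on chromosome 19. Myh2 (67171027-67197517), Myh1 (67200102-67224577) and Myh4 (67237812-67260447) follow each other on chromosome 11, with Myh3 on one side and Myh8 and Myh13 on the other. Promoter sequence was at hand for 7 of the 10 genes, with 8 starts since Pvalb has a pair of them. The 250 bases before the start are printed 5′ to 3′ for the actin gene, the creatine kinase gene and the myosin gene cluster, to let the neighbors be compared. Capitals mark matches, on either strand, to the E-box CANNTG bound by MyoD-type factors, the MEF2 motif, the CArG box bound by serum response factor, the MCAT motif CATTCC and the TATA box TATAAA found before many starts.
Acta1 (chr8:123894776-123895025, minus strand): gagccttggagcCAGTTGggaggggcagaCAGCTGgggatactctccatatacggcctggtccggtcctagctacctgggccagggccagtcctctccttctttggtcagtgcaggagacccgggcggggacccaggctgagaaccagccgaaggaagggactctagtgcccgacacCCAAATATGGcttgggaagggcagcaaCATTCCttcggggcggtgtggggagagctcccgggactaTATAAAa
Ckm (chr7:19410844-19411093, plus strand): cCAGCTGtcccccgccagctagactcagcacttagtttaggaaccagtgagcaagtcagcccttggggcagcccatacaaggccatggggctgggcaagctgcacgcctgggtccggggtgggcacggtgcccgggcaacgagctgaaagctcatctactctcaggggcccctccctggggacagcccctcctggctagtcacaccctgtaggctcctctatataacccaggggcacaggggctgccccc
Myh2 (chr11:67170777-67171026, plus strand): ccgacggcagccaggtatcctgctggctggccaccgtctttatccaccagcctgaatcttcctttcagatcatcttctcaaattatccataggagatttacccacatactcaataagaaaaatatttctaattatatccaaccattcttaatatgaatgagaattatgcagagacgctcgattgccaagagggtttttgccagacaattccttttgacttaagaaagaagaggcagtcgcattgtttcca
Myh1 (chr11:67199852-67200101, plus strand): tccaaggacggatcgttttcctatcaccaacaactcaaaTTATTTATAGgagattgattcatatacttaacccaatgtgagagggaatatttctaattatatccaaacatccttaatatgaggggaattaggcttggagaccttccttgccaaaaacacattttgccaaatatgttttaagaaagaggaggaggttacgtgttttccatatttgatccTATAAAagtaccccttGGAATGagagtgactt
Myh4 (chr11:67237562-67237811, plus strand): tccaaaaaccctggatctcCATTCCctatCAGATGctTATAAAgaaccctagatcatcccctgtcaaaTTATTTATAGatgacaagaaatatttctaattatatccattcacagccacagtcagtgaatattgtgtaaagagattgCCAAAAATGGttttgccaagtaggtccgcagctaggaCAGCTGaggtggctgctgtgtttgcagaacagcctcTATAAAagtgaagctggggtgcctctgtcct

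Myh4 and Myh1 shared a MEF2 match, which overlaps a TATAAA match on the other strand in both, and Myh2 held none of the 5 motifs in this window. Acta1 and Myh4 were the genes with a CArG box, at positions -73 to -64 of Acta1 and -104 to -95 of Myh4 where the annotated first transcribed base is 0. Of the 8 promoters of these genes, 5 held an E-box, 3 a MEF2 motif, 2 a CArG box, 3 the MCAT motif and 3 the TATA box. Among all 32841 mouse promoters of the same length, 66.2% held an E-box, 2.92% a MEF2 motif, 1.47% a CArG box, 12.6% the MCAT motif and 12.4% the TATA box. Among 84 promoters of other skeletal muscle genes, which are listed further below, 86.9% held an E-box, 13.1% a MEF2 motif and 4.76% a CArG box. The MCAT motif was in 16.7% of those 84 and the TATA box in 17.9%. With 8 promoters, nothing is read from how these shares compare. These are matches of letters, and binding was not measured.

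The 10 genes were present in all 4 vehicle tumors, lay below all 4 vehicle values in each of the 8 anti-PD1 and α-KG tumors (under 1 FPKM for 8 genes, up to 1.90 for Ckm and 2.46 FPKM for Mylpf), and split within the α-KG + anti-PD1 group, where tumors 1 and 2 lay within or near the range of vehicle tumors 1 to 3 and tumors 3 and 4 lay far below it. Their summed level was 73.6, 71.8, 97.4 and 900 FPKM in vehicle tumors 1 to 4. It was 2.87 to 4.31 FPKM in the anti-PD1 tumors and 3.90 to 4.91 FPKM in the α-KG tumors. In the α-KG + anti-PD1 tumors it was 94.9, 55.5, 5.98 and 4.85 FPKM. Even in vehicle tumor 4 this was 0.142% of all FPKM.

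**Figure D1:**
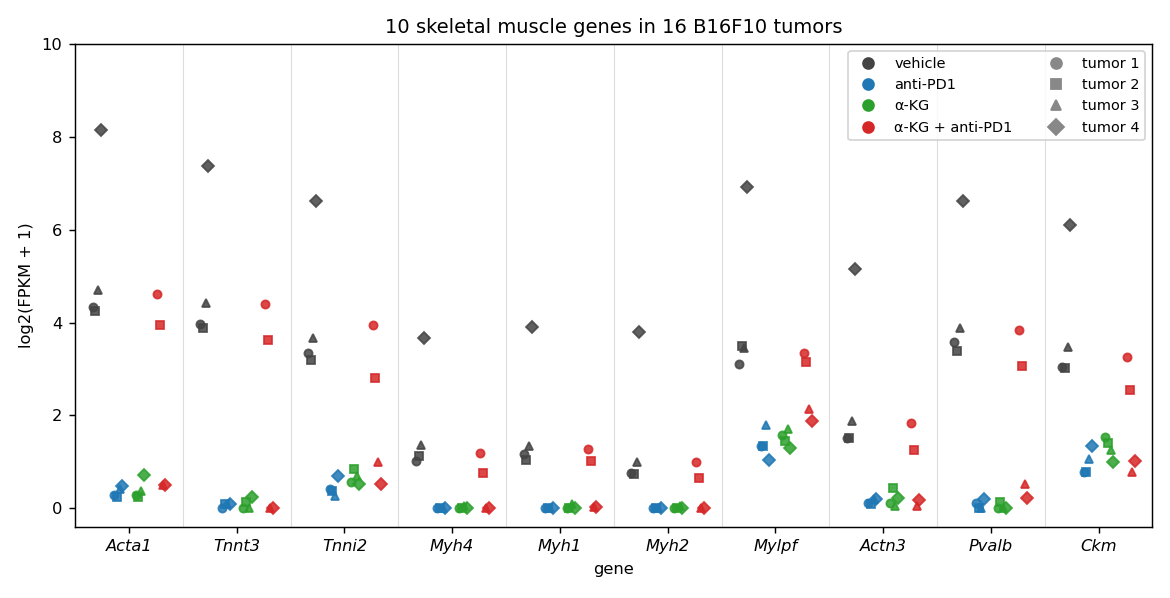
Level of each of the 10 muscle genes in each of 16 tumors, as log2(FPKM + 1) on the vertical axis, with color for the group and marker shape for the tumor number. Vehicle tumor 4 is the highest point of every gene (281 FPKM for Acta1), and the red points split into tumors 1 and 2 (23.4 and 14.4 FPKM for Acta1) and tumors 3 and 4 (0.41 and 0.42 FPKM).

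Acta1, the actin of skeletal muscle, had the highest mean level of the 10 genes. Acta1 measured 19.1, 18.1, 24.9 and 281 FPKM in vehicle tumors 1 to 4, with a mean of 85.9 ± 130.3 (SD, n = 4). With anti-PD1 it measured 0.22, 0.18, 0.34 and 0.39 FPKM (0.282 ± 0.0988) and 0.22, 0.19, 0.30 and 0.65 FPKM with α-KG (0.340 ± 0.212). Under both agents it was 23.4, 14.4, 0.41 and 0.42 FPKM. The lowest vehicle tumor was thus 27.9-fold above the highest anti-PD1 or α-KG tumor. Tnnt3, the troponin that ties the complex to tropomyosin in fast fibers, measured 14.7, 13.8, 20.3 and 164 FPKM in the vehicle tumors and was listed at 0 to 0.07 FPKM with anti-PD1 and at 0 to 0.19 FPKM with α-KG. Its values in the α-KG + anti-PD1 tumors were 19.97, 11.4, 0 and 0 FPKM. Tnnt3 had the widest such gap of the 10 genes, 72.8-fold. Tnni2, the inhibitory troponin of fast fibers, measured 9.22, 8.18, 11.7 and 97.9 FPKM in the vehicle tumors and, with both agents, 14.3, 6.01, 1.00 and 0.43 FPKM. The anti-PD1 tumors had 0.33, 0.29, 0.20 and 0.62 FPKM of Tnni2 and the α-KG tumors 0.47, 0.80, 0.62 and 0.44 FPKM. Tnni2 and Tnnt3 are neighbors on chromosome 7, and α-KG + anti-PD1 tumor 3, at 1.00 FPKM of Tnni2, was listed at 0 for Tnnt3.

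The thick filament was represented by the heavy chains Myh4 (type 2B fibers), Myh1 (type 2X) and Myh2 (type 2A) and by the regulatory light chain Mylpf. Myh4 measured 1.02, 1.19, 1.58 and 11.7 FPKM in the vehicle tumors and 1.29, 0.68, 0 and 0 FPKM under both agents. Myh1 measured 1.25, 1.05, 1.53 and 13.9 FPKM in the vehicle tumors and 1.42, 1.03, 0.02 and 0.02 FPKM under both agents. Myh2 measured 0.68, 0.67, 0.99 and 12.9 FPKM in the vehicle tumors and 0.99, 0.57, 0 and 0 FPKM under both agents. Of the 8 anti-PD1 and α-KG tumors, 5 were listed at 0 for Myh4, 7 for Myh1 and 7 for Myh2, and the highest value among them was 0.06 FPKM, of Myh1 in α-KG tumor 3. The heavy chains are close copies of each other, and how fragments that match several of them were assigned is not given in the sources used here. Mylpf measured 7.66, 10.2, 9.87 and 120 FPKM in the vehicle tumors and 9.08, 7.85, 3.38 and 2.68 FPKM under both agents. With Ckm, it kept the highest level outside the tumors named so far, 1.05 to 2.46 FPKM with anti-PD1 (1.65 ± 0.588) and 1.47 to 2.26 FPKM with α-KG (mean 1.86, SD 0.341). Mylpf was also the gene for which every α-KG + anti-PD1 tumor lay above every anti-PD1 and every α-KG tumor with all 16 values above 1 FPKM.

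In the mix of heavy chains, the share of Myh2 set vehicle tumor 4 apart from the others with measurable myosin, and the shares of Myh4 and Myh1 did not. Of the summed FPKM of the heavy chains named above, Myh4 made up 34.6, 40.9 and 38.5% in vehicle tumors 1 to 3, 30.4% in vehicle tumor 4, and 34.9 and 29.8% in α-KG + anti-PD1 tumors 1 and 2. Myh1 made up 42.4, 36.1 and 37.3% in vehicle tumors 1 to 3, 36.1% in vehicle tumor 4, and 38.4 and 45.2% in α-KG + anti-PD1 tumors 1 and 2. Myh2 made up 23.1, 23.0 and 24.1% in vehicle tumors 1 to 3, 33.5% in vehicle tumor 4, and 26.8 and 25.0% in α-KG + anti-PD1 tumors 1 and 2. Outside vehicle tumor 4 these Myh2 shares rest on 0.57 to 0.99 FPKM. The ratio of Myh2 to Myh4 was therefore 1.10 in vehicle tumor 4 and lay between 0.563 and 0.838 in the other 5 tumors. Counts behind these values are not known, so a counting interval could not be given.

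Within the gene cluster on chromosome 11 the fast adult heavy chains carried the signal. Myh3, the embryonic heavy chain, measured 0.15, 0.21, 0.25 and 0.78 FPKM in the vehicle tumors and 0.03 to 0.16 FPKM in the other 12 tumors. Myh8, the perinatal one, measured 0.02, 0.10, 0.04 and 0.30 FPKM in the vehicle tumors and at most 0.06 FPKM elsewhere. Myh13 was listed at 0 in all vehicle tumors. On chromosome 14, Myh7, the heavy chain of slow fibers and of the heart, was listed at 0 in every tumor but vehicle tumor 4, where it was 0.02 FPKM.

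Several other genes of slow fibers were compared with their fast counterparts. Apart from Tnnc1 they were chosen after their values were seen. Tnni1, the slow counterpart of Tnni2, measured 0.63, 0.33, 0.47 and 1.91 FPKM in the vehicle tumors and 0.28 to 0.60 FPKM with anti-PD1, so that those groups overlapped. Tnnc1, the slow counterpart of Tnnc2, measured 0.23, 0.09, 0.30 and 0.49 FPKM in the vehicle tumors, up to 0.54 FPKM with α-KG and 0.61, 0.70, 0.58 and 0.32 FPKM under both agents, and did not follow the block. Tnnt1, the slow counterpart of Tnnt3, was higher, at 2.44, 1.62, 2.73 and 12.1 FPKM in the vehicle tumors and 1.87, 1.90, 0.61 and 1.68 FPKM under both agents. Tnnt1 was above 0 in every tumor, at 0.88 to 1.35 FPKM with anti-PD1 and at 0.55 to 1.08 FPKM with α-KG. The slow light chain Myl3 split the α-KG + anti-PD1 group like the block but was listed at 0 in vehicle tumors 2 and 3, with 0.09, 0, 0 and 0.76 FPKM in the vehicle tumors, 0.19, 0.09, 0 and 0 FPKM under both agents and at most 0.08 FPKM elsewhere. The slow light chain Myl2 did not follow the block, with 0.38, 0.30, 0.22 and 0.21 FPKM in the vehicle tumors and 0.13 to 0.45 FPKM with anti-PD1.

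Actn3 crosslinks actin at the Z-disc of fast fibers, and Pvalb binds calcium in their cytoplasm. Actn3 measured 1.87, 1.86, 2.68 and 34.4 FPKM in the vehicle tumors and 2.57, 1.37, 0.03 and 0.13 FPKM under both agents. It was 0.07 to 0.15 FPKM in the anti-PD1 tumors (0.110 ± 0.0408) and 0.04 to 0.35 FPKM in the α-KG tumors (mean 0.157, SD 0.138). Pvalb measured 10.9, 9.52, 13.8 and 97.0 FPKM in the vehicle tumors and 13.3, 7.38, 0.43 and 0.16 FPKM under both agents. In the other groups Pvalb was listed at 0 in 5 of 8 tumors and reached 0.15 FPKM at most. Its lowest vehicle value was 63.5-fold above that maximum, a gap second to that of Tnnt3 among the 10 genes.

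Ckm, the creatine kinase of muscle, was the energy gene of the block and had a floor in every tumor. It measured 7.25, 7.14, 10.1 and 67.2 FPKM in the vehicle tumors and 8.51, 4.86, 0.71 and 1.01 FPKM under both agents. The anti-PD1 tumors had 0.72, 0.72, 1.10 and 1.52 FPKM and the α-KG tumors 1.90, 1.65, 1.37 and 0.99 FPKM. The gap between the lowest vehicle tumor and the highest anti-PD1 or α-KG tumor was 3.76-fold for Ckm and 3.11-fold for Mylpf, the narrowest of the 10 genes.

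By group median, vehicle came first and α-KG + anti-PD1 second for all 10 genes, and the order of the anti-PD1 and α-KG groups, whose ranges overlapped, varied from gene to gene. Vehicle and α-KG + anti-PD1 overlapped for every gene. The anti-PD1 tumors lay wholly below the vehicle tumors for 10 of 10 genes, and for 3.61% of all 12850 genes tested. All of the 10 but Tnni2, Ckm and Mylpf passed the filter on low values only through the vehicle tumors. The α-KG tumors lay wholly below the vehicle tumors for 10 of 10 genes (10.4% of all genes). The α-KG + anti-PD1 tumors lay wholly above the anti-PD1 tumors for 4 of 10 genes, namely Acta1, Myh1, Mylpf and Pvalb (13.6% of all genes). They lay wholly above the α-KG tumors for 2 of 10 genes, Mylpf and Pvalb (29.7% of all genes). The genes were chosen on these values, so nothing is read from these counts.

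On the log2(FPKM + 1) scale, the median difference of the 10 genes was -2.89 for anti-PD1 minus vehicle, from -5.00 (Acta1) to -1.57 (Myh2), and 0.03 over all genes tested. For α-KG minus vehicle the median was -2.67, from -4.95 (Acta1) to -1.56 (Myh2), against -0.04 over all genes. For α-KG + anti-PD1 minus vehicle it was -1.85, from -2.97 (Acta1) to -1.16 (Myh2), against 0.15 over all genes. Without vehicle tumor 4 these medians were -2.08, -1.86 and -1.05. For α-KG + anti-PD1 the median difference was 1.07 from anti-PD1 and 0.87 from α-KG, against 0.12 and 0.16 over all genes. All of the differences from vehicle rest on 1 set of 4 vehicle tumors. The pseudocount of 1 understates the differences of the myosin heavy chains, whose vehicle levels are close to 1 FPKM. Groups accounted for between 47.0% (Myh2) and 74.9% (Pvalb) of the variance of a gene over the 16 tumors, and the rest lay within groups, in vehicle tumor 4 and the split of the α-KG + anti-PD1 group.

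The 10 genes were strongly tied to each other. Pearson's r of log2(FPKM + 1) between a pair of them ran from 0.884 to 0.998 over 16 tumors (median 0.965 of 45 pairs), from 0.908 to 0.998 without vehicle tumor 4, and from 0.80 to 0.995 on deviations from group means. These values share libraries and are a description of genes chosen for moving together. Acta1 was 25.9, 25.3, 25.6 and 31.2% of the summed FPKM of the 10 genes in vehicle tumors 1 to 4, and 24.7 and 25.9% in α-KG + anti-PD1 tumors 1 and 2. Tnnt3 was 18.2 to 21.0% and Myh2 was 0.924 to 1.44% in these 6 tumors. Mylpf ranged from 9.57% in α-KG + anti-PD1 tumor 1 to 14.2% in vehicle tumor 2.

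Vehicle tumor 4 was scaled against the others gene by gene. For the 10 genes the median level relative to vehicle tumor 4 was 8.82, 8.39 and 11.5% in vehicle tumors 1 to 3, and 10.6 and 6.35% in α-KG + anti-PD1 tumors 1 and 2. Among them, Actn3 and Myh2 had the lowest relative levels, 3.98 to 7.78% and 4.40 to 7.65%, and Ckm and Pvalb were among the highest, at 7.23 to 15.01% and 7.60 to 14.2%. Of the wider set of muscle genes listed here, 33 genes, the 10 included, had at least 5 FPKM in vehicle tumor 4 and at most 5% of that in each anti-PD1 and α-KG tumor. This set was made after the values were seen. Over it, Lmod2, which nucleates thin filaments, was at 23.6 to 50.6% of vehicle tumor 4 and Des, the desmin that links Z-discs, at 13.3 to 29.6%. The lowest relative levels were those of Trdn, a protein of the calcium release site, at 1.38 to 6.88%, Smpx, a small muscle protein, at 1.80 to 10.9%, and Myf6, a myogenic transcription factor, at 1.92 to 5.29%. Over the 33 genes, Pearson's r of log2(FPKM), here without a pseudocount, ran from 0.946 to 0.989 between the other 5 tumors and from 0.902 to 0.946 between each of them and vehicle tumor 4. These values are across genes, which are not replicates.

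**Figure D2:**
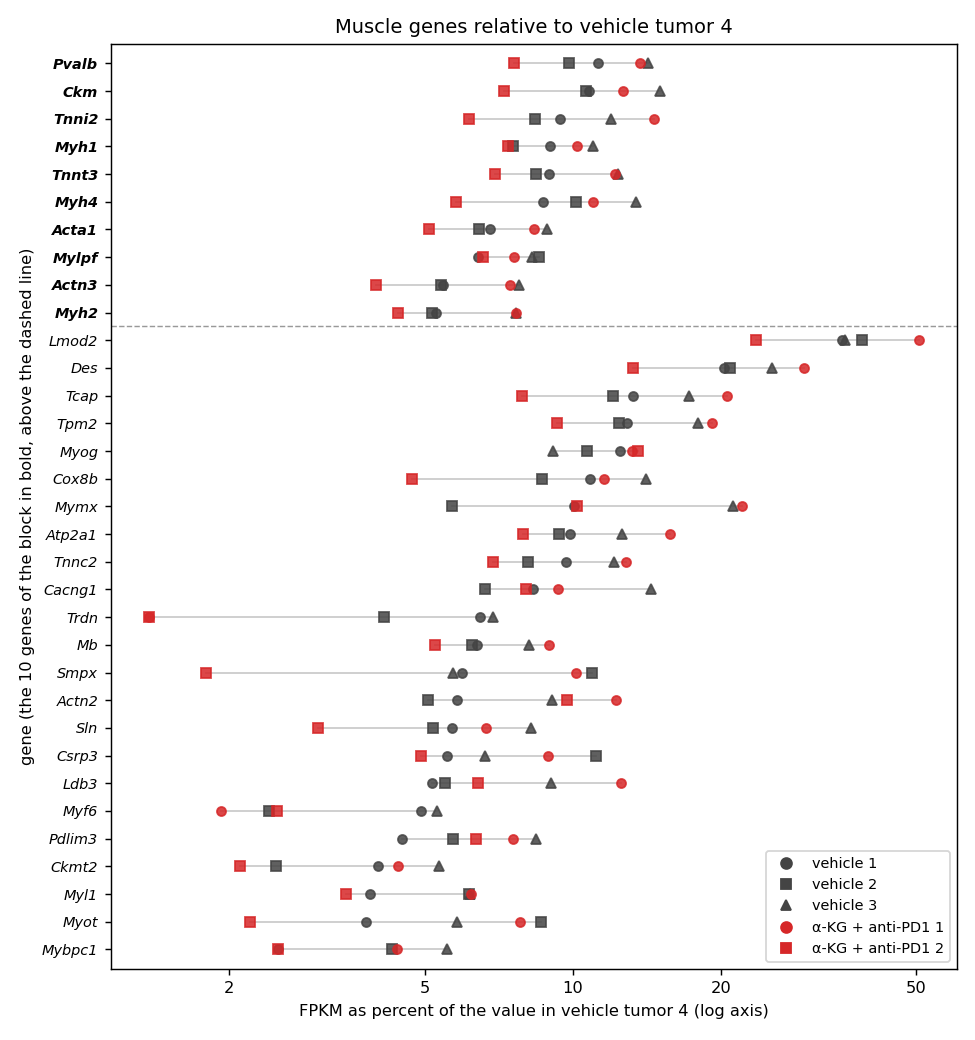
FPKM of 33 muscle genes in vehicle tumors 1 to 3 and α-KG + anti-PD1 tumors 1 and 2, as percent of the value in vehicle tumor 4 (horizontal log axis), with a gray line from the lowest to the highest tumor of each gene. Most genes lie between 5 and 20%, Lmod2 and Des lie to the right (up to 50.6 and 29.6%) and Trdn, Smpx and Myf6 reach furthest to the left (down to 1.38, 1.80 and 1.92%).

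Outside the block, 97 other skeletal muscle genes were listed by role, and 50 of them were at or above 0.5 FPKM in at least 4 tumors and were tested with limma across all 12850 such genes. A gene that is near 0 outside vehicle tumors could enter only through them, so the 50 are not all of the list. The filter thereby favors genes that are lower than in vehicle tumors, and the lists were chosen with earlier results of these data known. The counts and adjusted p values that follow are therefore a description, and nothing is read from how they compare with the shares of all genes. These genes come from the same tumors as the block and are no independent evidence for its pattern. In 84 of the 97 (86.6%) vehicle tumor 4 had the highest value, as it had in 7.88% of all genes tested. The 97 include genes that did not pass the filter and the 12850 do not, so these shares are over unlike sets. The Z-disc list had 20 of 22 genes highest there, excitation and calcium handling 20 of 22, muscle energy supply 13 of 15, thick filament and M-band 12 of 14, myogenic factors 11 of 14 and the thin filament 8 of 10.

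With anti-PD1 alone, 9 of the 50 tested muscle genes were lower than in vehicle tumors and 0 were higher in the limma fit, beside 0.28% and 0.467% of all genes tested. At an unadjusted p under 0.05, 33 were lower and 1 was higher. The median difference of the 50 was -1.04, against 0.03 over all genes. The thin filament gave 3 of 6 tested, Tnnc2, the calcium-binding troponin of fast fibers, at -4.17 (SE 0.763, adjusted p = 0.0322), Tpm2, a tropomyosin, at -3.81 (SE 0.723, adjusted p = 0.0349) and Lmod2 at -2.17 (SE 0.404, adjusted p = 0.0334). Tpm1, a tropomyosin used by many cell types, was the most abundant gene of the lists at 206 to 313 FPKM in all 16 tumors. The thick filament list gave 1 of 3, the essential light chain Myl1 (13.7 FPKM in vehicle tumor 2, 0.18 FPKM in anti-PD1 tumor 2). The Z-disc list gave 2 of 14, Tcap, the cap of titin, at -3.39 (SE 0.620, adjusted p = 0.0322) and Des at -2.87 (SE 0.537, adjusted p = 0.0344). Excitation and calcium handling gave 2 of 11, the fast calcium pump Atp2a1 at -3.40 (SE 0.668, adjusted p = 0.0391) and its regulator Sln, which was listed at 0 in all 4 anti-PD1 tumors. Energy supply gave 1 of 12, myoglobin (Mb), at -4.76 (SE 0.921, adjusted p = 0.0378), and the myogenic factors 0 of 4. All 9 adjusted p values lay between 0.0322 and 0.0464, and without vehicle tumor 4 the limma count was 0, with 31 lower and 1 higher at an unadjusted p under 0.05. It was also 0 without vehicle tumor 3, without anti-PD1 tumor 2, 3 or 4, without α-KG tumor 1 or 3, or with only the vehicle and anti-PD1 tumors in the fit, 4 or 5 without α-KG tumor 4 or anti-PD1 tumor 1, and 24 without vehicle tumor 1. Calls over all genes tested moved too, from 36 lower and 60 higher in the main fit to 355 and 530 without vehicle tumor 1. They were 0 and 0 without vehicle tumor 3 or 4, without anti-PD1 tumor 2, 3 or 4, or with only the 2 groups. Without α-KG tumor 1, 3 or 4 they were 3 and 5, 2 and 5, and 12 and 21. Without anti-PD1 tumor 1 they were 16 and 61.

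With α-KG alone, 25 of the 50 were lower than in vehicle tumors by limma and 0 were higher (34 and 0 at an unadjusted p under 0.05), beside 7.53% and 8.4% of all genes tested, and the median difference was -1.0. By list, 5 of 6 thin filament genes, 1 of 3 thick filament genes, 6 of 14 Z-disc genes, 5 of 11 genes of excitation and calcium handling, 6 of 12 energy genes and 2 of 4 myogenic factors were lower. The largest differences were those of Mb, at -4.78 (SE 0.921, adjusted p = 0.00231), and Myl1, at -4.45 (SE 0.892, adjusted p = 0.00309). Tnnc2 differed by -4.19 (SE 0.763, adjusted p = 0.00149) and Tpm2 by -4.04 (SE 0.723, adjusted p = 0.00128). Jsrp1, a protein of the calcium release site, went from 3.12, 2.53, 3.68 and 11.9 FPKM in the vehicle tumors to 0.58 to 0.84 FPKM. Among the genes that other tissues use too, Pfkm, a phosphofructokinase, differed by -0.75 (SE 0.142, adjusted p = 0.00217) and Slc2a4, the insulin-regulated glucose transporter, by -0.53 (SE 0.142, adjusted p = 0.0194). The fusion protein gene Mymx and Myog, a transcription factor of differentiating muscle, were the myogenic genes called, at 0.71, 0.40, 1.49 and 7.05 FPKM and 0.70, 0.60, 0.51 and 5.61 FPKM in the vehicle tumors. Mymx was listed at 0 in all 4 α-KG tumors and Myog reached 0.06 FPKM. Without vehicle tumor 4 the count was 22, and without α-KG tumor 3 it was 14. Lower calls over all genes tested were 968 in the main fit, 483 without vehicle tumor 4 and 424 without α-KG tumor 3.

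With α-KG + anti-PD1, 17 of the 50 were lower than in vehicle tumors and 1 was higher, beside 10.5% and 34.9% of all genes tested, and the median difference was -0.68 against 0.15 over all genes. Lower were 3 of 6 thin filament genes, 1 of 3 thick filament genes, 5 of 14 Z-disc genes, 4 of 11 of excitation and calcium handling, 3 of 12 energy genes and 1 of 4 myogenic factors. Mb differed by -2.89 (SE 0.921, adjusted p = 0.0192), Tnnc2 by -2.41 (SE 0.763, adjusted p = 0.0186) and Des by -1.74 (SE 0.537, adjusted p = 0.0163). Each SE comes from 1 estimate of spread per gene, shared by all 4 groups. Mb ran from 12.6 to 202 FPKM in the vehicle tumors and from 0 to 18.1 FPKM under both agents. With anti-PD1 or α-KG alone it was at most 0.15 FPKM. The SE and adjusted p of such genes thus understate the spread of the 2 groups compared here. Phka1, a subunit of phosphorylase kinase, was the higher gene, at 0.48 (SE 0.139, adjusted p = 0.0117). Without vehicle tumor 4 the split was 3 lower and 5 higher, without α-KG + anti-PD1 tumor 3 it was 0 lower and 1 higher, and without tumor 4 of that group 3 lower and 1 higher. With only these 2 groups in the fit, 1 was lower and 1 higher, while under quantile normalization 34 were lower. Over all genes tested, 1348 were lower and 4479 higher in the main fit. Quantile normalization gave 3994 and 2241, and the 2 groups alone gave 928 and 3938. The runs without vehicle tumor 4 and without α-KG + anti-PD1 tumor 3 or 4 gave 810 and 3455, 935 and 3746, and 1368 and 4279.

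The α-KG + anti-PD1 tumors had 2 of the 50 genes higher and 1 lower than the anti-PD1 tumors, beside 14.2% and 1.31% of all genes. Those higher were Phka1, at 0.46 (SE 0.139, adjusted p = 0.0385), and the transcription factor Mef2c, at 0.35 (SE 0.101, adjusted p = 0.0342). Trim63, a ubiquitin ligase that acts on muscle proteins, was lower, at -0.32 (SE 0.0959, adjusted p = 0.0373), and it was at 13.7 to 24.4 FPKM in every tumor. None of these belongs to the set of 33 genes. Under quantile normalization 2 were lower and 0 higher, and the count of higher genes was 7 without vehicle tumor 4, 6 without α-KG + anti-PD1 tumor 4, 1 without tumor 1 of that group, and 0 without its tumor 3 or without anti-PD1 tumor 1 or 4 (15, 4 and 4 at an unadjusted p under 0.05). Over all genes tested, 168 were lower and 1819 higher in the main fit, and 1082 and 721 under quantile normalization. Higher calls over all genes were 1693, 2278, 917, 324, 202 and 289 in the other runs, in the order given. Against α-KG alone, 6 of the 50 were higher and 0 lower by limma (17 and 0 at an unadjusted p under 0.05), beside 31.8% and 6.47% of all genes. These were Phka1, Slc2a4, Pfkm, Tpm1, Cacnb1, a subunit of the muscle calcium channel, and Myom1 of the M-band, with differences from 0.33 (Tpm1) to 0.84 (Cacnb1). Without vehicle tumor 4 in the fit the count was 18, without α-KG + anti-PD1 tumor 3 or 4 it was 13, and without α-KG tumor 3 it was 3. Higher calls over all genes tested were 4086 in the main fit and 4016, 3277, 3978 and 2854 in these runs.

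The anti-PD1 difference with α-KG less that without it passed the threshold by limma for 18 of the 50 genes. Of these, 18 were upward and 0 downward (39 and 0 at an unadjusted p under 0.05), beside 7.99% and 3.13% of all genes tested. Upward here means that the group mean fell with anti-PD1 in the absence of α-KG and did not fall as far, or was higher, in its presence. Genes near 0 with α-KG alone, such as Mb (at most 0.09 FPKM) and Tnnc2 (at most 0.12), had no room for a matching fall. The difference was 6.65 for Mb (SE 1.30, adjusted p = 0.00615), 5.95 for Tnnc2 (SE 1.08, adjusted p = 0.00404) and 4.94 for Tcap (SE 0.876, adjusted p = 0.0035), all on the log2(FPKM + 1) scale. Without vehicle tumor 4 the count was 28, while upward calls over all genes tested were 805, against 1027 in the main fit. Tnnc2 split the α-KG + anti-PD1 group as the block did, with 13.1, 7.03, 0.15 and 0.34 FPKM. Others among the 18 did not, such as Mef2c with 9.53, 7.43, 8.69 and 9.10 FPKM and Pfkm with 20.2, 16.5, 16.8 and 17.4 FPKM.

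**Figure D3:**
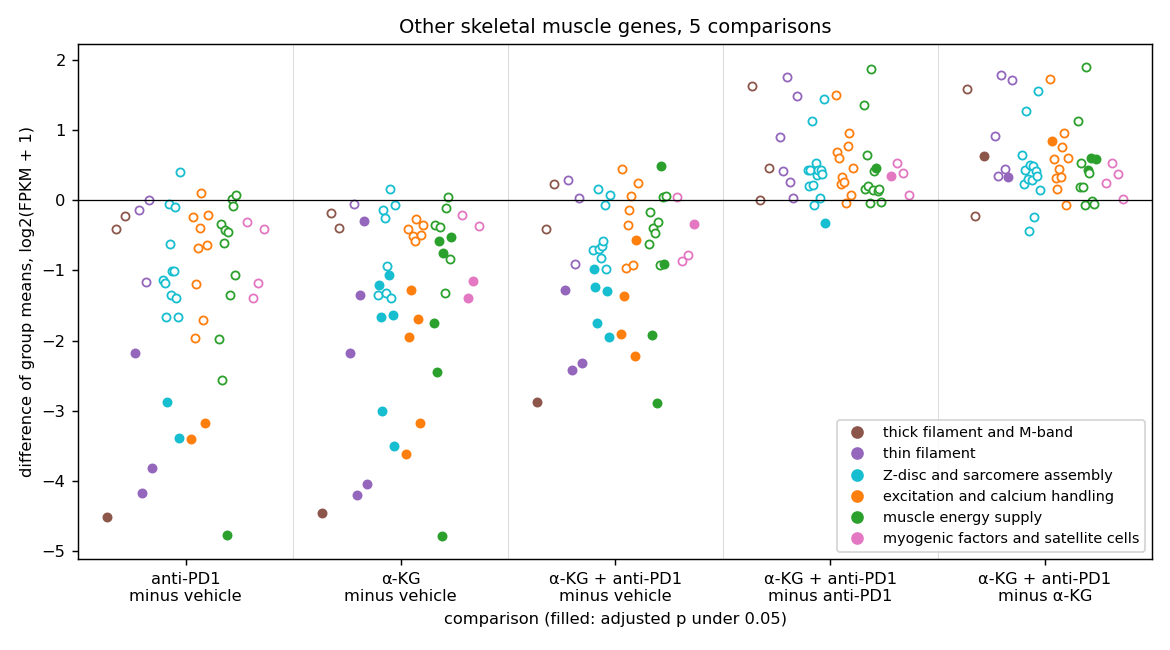
Difference of group means on the log2(FPKM + 1) scale (vertical axis) for the 50 tested muscle genes outside the block in 5 comparisons, colored by list and filled where limma's adjusted p was under 0.05. Most points against vehicle lie below 0, down to -4.78 (Mb, α-KG), and the filled points against anti-PD1 (3) and α-KG (6) lie within 1 of 0.

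The genes whose levels over the 16 tumors were most like the mean of the block were searched among 12840 other genes tested. The 10 closest were Car3 (Pearson's r 0.998), Myl1 (0.996), Sln (0.995), Hspb7 (0.993), Mb (0.992), Tnnc2 (0.991), Atp2a1 (0.991), Tcap (0.989), Jsrp1 (0.987) and Cacng1 (0.984). Of these, 8 were on the muscle lists. Car3, carbonic anhydrase 3, measured 9.14, 10.6, 13.7 and 193 FPKM in the vehicle tumors and 11.7, 6.50, 0.13 and 0.05 FPKM under both agents. Hspb7, a small heat shock protein, measured 1.92, 2.11, 2.66 and 11.9 FPKM in the vehicle tumors and 2.86, 1.53, 0.39 and 0.40 FPKM under both agents. In all, 36 genes had an r above 0.9, of which 24 were on the muscle lists. The tumors share vehicle tumor 4, and without it r was 0.997 for Car3 and 0.985 for Hspb7.

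Markers of other tissues near a tumor were examined beside the block. All 6 fibroblast genes had their highest value in vehicle tumor 4, where their sum was 37.5 FPKM against 4.96 to 8.90 FPKM in vehicle tumors 1 to 3, 4.90 to 10.5 with anti-PD1, 6.72 to 9.13 with α-KG and 9.51 to 13.5 with α-KG + anti-PD1. Col1a1, a collagen chain, measured 5.04, 2.44, 3.43 and 10.6 FPKM in the vehicle tumors and 5.75, 5.19, 7.18 and 4.99 FPKM under both agents, so that tumor 3 of that group was its highest and tumor 4 its lowest. Keratinocyte genes summed to 9.04 to 18.4 FPKM in all 16 tumors, mostly from Lgals7 and Sfn, while Krt5 and Krt14, which define the basal layer, were at most 0.38 FPKM and were at or near 0 in the vehicle tumors. Trp63, a transcription factor on the same list, measured 0.05, 0.04, 0 and 0.38 FPKM in the vehicle tumors, 0.05, 0.05, 0 and 0 FPKM under both agents and at most 0.02 FPKM in the other groups. Adipocyte genes summed to 3.73 to 25.3 FPKM, mostly Fabp4, with Plin1 at 0.04 FPKM or less. Of the 8 adipocyte genes 4 were highest in vehicle tumor 4, namely Cfd (1.2 FPKM), Adipoq (0.44), Plin4 (0.27) and Cidec (0.20). Adipoq was listed at 0 in all 8 anti-PD1 and α-KG tumors, and also in vehicle tumors 1 and 2. Under both agents it was 0.07, 0.26, 0.08 and 0.06 FPKM, without the split of the block. Fabp4 was highest in anti-PD1 tumor 4 (25.2 FPKM) and Retn in α-KG tumor 1 (0.74 FPKM). Smooth muscle genes summed to 15.1 to 22.1 FPKM, and 3 of the 8 were highest in vehicle tumor 4. Heart genes summed to 17.1 to 33.0 FPKM, mostly Nppb, and the heart-specific Myh6 and Mybpc3 were at most 0.05 FPKM. Vehicle tumor 4 had the highest value of 3 of the 9 heart genes, Myl4 (6.68 FPKM, at most 2.74 elsewhere), Tnnt2 (1.67, at most 1.09 elsewhere) and Actc1 (1.43, at most 0.29 elsewhere). Leukocyte genes were lowest in the vehicle tumors (51.0 to 153 FPKM) and summed to 941 and 368 FPKM in α-KG + anti-PD1 tumors 1 and 2 and to 941 and 324 FPKM in tumors 3 and 4, so they did not divide that group as the block did. The melanocyte sum was 8288 FPKM in vehicle tumor 4 and 8458 to 10090 FPKM in the other vehicle tumors. Their part in the levels of the block was not tested.

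**Figure D4:**
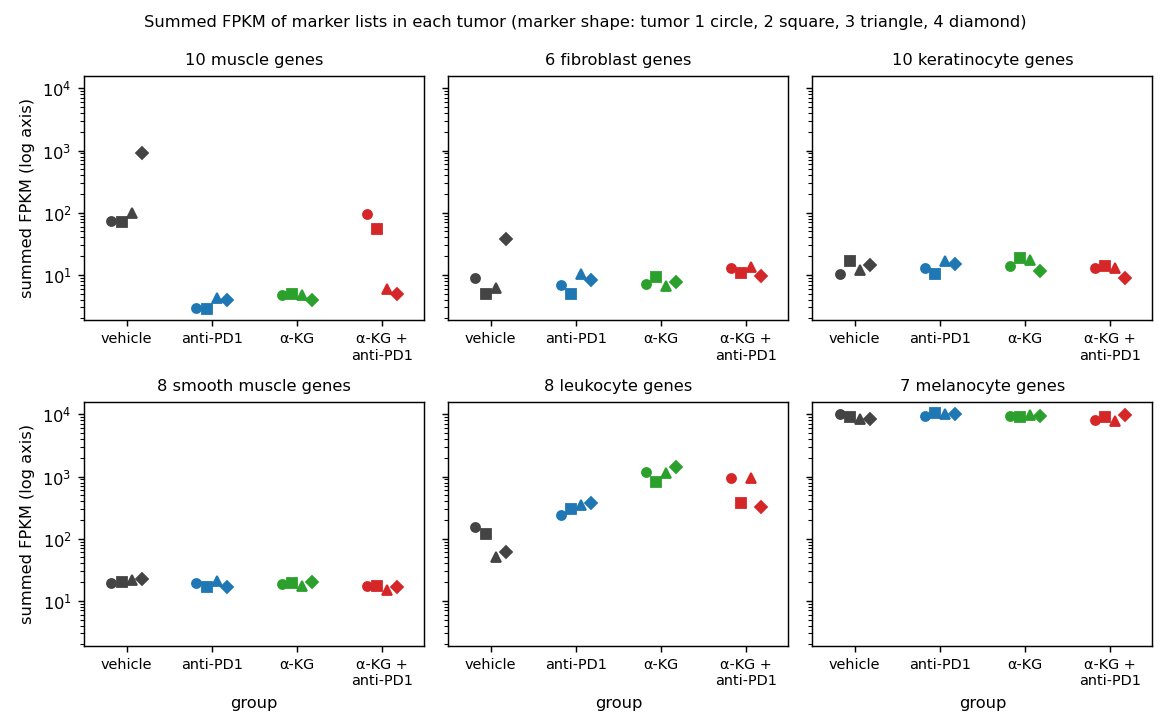
Summed FPKM of the 10 muscle genes and of 5 marker lists in each tumor (vertical log axis, shared by all panels), by group, with marker shape for the tumor number. The muscle panel spans 2.87 to 900 FPKM, and vehicle tumor 4 stands out also for fibroblast genes (37.5 FPKM). No other panel splits α-KG + anti-PD1 tumors 1 and 2 from 3 and 4 as widely as the muscle panel. The smooth muscle sums (17.49, 17.53, 15.11 and 16.98 FPKM in tumors 1 to 4) and keratinocyte sums (12.81, 13.83, 12.68 and 9.04 FPKM) separate these pairs by little.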

How the data were processed

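The authors captured poly(A) RNA from tumor tissue with oligo-dT, marked the second strand with dUTP and sequenced on a DNBSEQ platform. The submitters' processing notes name HISAT, Bowtie2 and the mm10 build. The program behind the FPKM values, the annotation and any filter are not given in the sources used here. The authors deposited FPKM values with 2 decimals for 18929 genes in 16 tumors, and all columns were used. Depth is not stated. Low values of 20 sparse genes did not fall on whole-fragment steps, so read counts were not recovered. Of 59 ratios to a gene's lowest value above 0, 13.6% were within 0.15 of a whole number.

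FPKM was converted to log2(FPKM + 1). The 12850 genes that reached 0.5 FPKM in 4 tumors or more were fitted with limma 3.58.1 (lmFit, contrasts.fit, eBayes with trend) in R 4.3.3, 1 mean per group over 16 tumors, with Benjamini-Hochberg adjustment over all genes tested and a threshold of 0.05. The fit was tested on simulated data that had equal spread in all groups. In the tumors, the block and muscle genes like it varied far more in the vehicle and α-KG + anti-PD1 groups than in the others. The interaction took the anti-PD1 difference among α-KG tumors less the one among tumors without α-KG. Tables and figures were made with Python 3.11.15, pandas 2.3.3 and matplotlib 3.10.9. Groups came from the labels. The 10 genes and all gene lists were chosen with earlier results of these data known, which is why the 10 genes get no test. Genes named beside them are, for each muscle list, the 3 with the highest mean FPKM and up to 3 with the smallest p in each of 5 comparisons, the 10 most alike by Pearson's r, the 2 most abundant of each list of another tissue, and Myh7, Myh3 and Myh8. Others were named after their values were seen, mainly the remaining genes called in a comparison. Promoters come from RefSeq (GRCm38.p6).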

Additional observations from a re-analysis of the deposited data

Results flagged for a closer look

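Vehicle tumor 4 had the highest value of its group for all 10 genes, with a gap to the next tumor above Dixon's limit as a share of the group's range, at 281 FPKM for Acta1, 11.7 for Myh4, 13.9 for Myh1, 12.9 for Myh2, 67.2 for Ckm, 119.7 for Mylpf, 164 for Tnnt3, 97.9 for Tnni2, 34.4 for Actn3 and 97.05 for Pvalb. The genes were chosen on these values and are tied to each other, so this is a description of 1 tumor and not a test. The same measure marked 5 values that were all under 1 FPKM. Those highest in their group were Myh4 in anti-PD1 tumor 4 (0.01 FPKM), Myh1 and Myh2 in α-KG tumor 3 (0.06 and 0.03 FPKM) and Pvalb in α-KG tumor 2 (0.1 FPKM), each beside tumors listed at 0, where the gap equals the range by construction. Tnnt3 in anti-PD1 tumor 1 was the lowest of its group (0 FPKM) beside equal values. The measure marks about 1 in 20 groups of unselected values by chance, and since these genes were selected their flags cannot be read against that share.

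By limma, the difference between the anti-PD1 effects with and without α-KG passed the threshold for 16 named muscle genes outside the block. They are part of the 18 called among the 50 tested. Over all genes tested, 7.99% passed upward and 3.13% downward. Genes were named partly for a small p in these data, so nothing is read from this count. Several of the 16 were near 0 with α-KG alone, such as Mb (at most 0.09 FPKM), Tnnc2 (at most 0.12) and Tcap (at most 0.1). No further fall with anti-PD1 could be measured for those, so their values are not read as an effect of anti-PD1 that depends on α-KG. The difference of the effects on the log2(FPKM + 1) scale was 6.65 for Mb, 6.08 for Myl1, 5.95 for Tnnc2, 5.52 for Tpm2, 5.12 for Atp2a1, 4.94 for Tcap, 4.14 for Des and 4.13 for Sln. It was 3.11 for Cox6a2, 3.08 for Lmod2, 3.08 for Cox8b, 2.46 for Jsrp1, 1.93 for Mymx, 0.88 for Pfkm, 0.79 for Eno3 and 0.56 for Mef2c. Sln and Mymx were listed at 0 in all anti-PD1 and α-KG tumors, so their values are no folds.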

How the results depend on the processing

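The median differences of the 10 genes kept their direction under every alternative run. Leaving out each tumor in turn gave -3.22 to -2.08 for anti-PD1 minus vehicle, -3.00 to -1.86 for α-KG minus vehicle, -2.25 to -1.05 for α-KG + anti-PD1 minus vehicle, 0.73 to 1.34 against anti-PD1 and 0.56 to 1.13 against α-KG. A pseudocount of 0.1 moved the first 2 to -4.55 and -4.41 and the last 2 from 1.07 to 1.82 and from 0.87 to 1.68. The counts of other muscle genes called depended more on the settings, and the cause was not tested. For anti-PD1 against vehicle (9) the count was 19 with a pseudocount of 0.1, 14 with centering on tumor medians, and 0 with no filter, with the replicate number as a block and with the 2 compared groups alone (33 and 31 lower at an unadjusted p under 0.05 in the last pair). Over all genes, lower and higher calls were 36 and 60 in the main fit, 80 and 232 with that pseudocount, and 67 and 134 with centering. They were 2 and 3 with no filter, and 0 and 0 with the block or the 2 groups alone. For α-KG against vehicle (25) the count was 15 with the 2 groups alone, where 636 of all genes were lower, against 968 in the main fit. For α-KG + anti-PD1 against vehicle (18) the count was 34 under quantile normalization, 31 with centering and 2 with the 2 groups alone. Lower calls over all genes were 1348 in the main fit, 3994 under quantile normalization, 4803 with centering and 928 with the 2 groups alone. Against anti-PD1 (3) the count was 6 with a pseudocount of 0.1 and 6 with rescaling to the same sum, 2 under quantile normalization and 1 with centering, all lower in both, 1 with the replicate block and 0 with the 2 groups alone. Over all genes, lower and higher calls were 168 and 1819 in the main fit, 140 and 1349 with that pseudocount, and 36 and 4198 with rescaling. Quantile normalization gave 1082 and 721, centering 1968 and 802, the block 102 and 1431, and the 2 groups alone 0 and 0. Against α-KG (6) the count was 11 with a pseudocount of 0.1, 18 with rescaling, 12 with the 2 groups alone, 2 with centering and 1 under quantile normalization. Higher calls over all genes were 4086 in the main fit and 3960, 6829, 3768, 1758 and 2023 in these runs, in the order given. For the interaction (18) the count was 28 with rescaling, where upward calls over all genes were 2110, against 1027 in the main fit. Leaving out each tumor gave counts that ran, against vehicle, from 0 to 24 (anti-PD1), from 14 to 31 (α-KG) and from 1 to 25 (both agents), from 0 to 8 against anti-PD1, from 3 to 18 against α-KG and from 12 to 28 in the interaction. Same-numbered tumors of different groups did not deviate together by median r (0.007 over 24 pairs, 0.004 over 72 pairs with different numbers). Single pairs ran from -0.642 to 0.411 for the same number and from -0.479 to 0.619 for different numbers. These values cannot exclude a pairing of some tumors, and the labels state none. Depth is unknown, so the precision of values under 1 FPKM, which most anti-PD1 and α-KG values are, is not known.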
